A study of Mus musculus with 8 samples.

Results

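The subject is the glutamate receptors, the GABA receptors and the Slc6 family of transporters in neural stem cells (NSCs) cultured with recombinant CHIL3 or with growth factors. Members were chosen by gene symbol alone. They were all genes of the array whose symbol begins with Gria (AMPA receptor), Grik (kainate receptor), Grin (NMDA receptor), Grid (delta receptor), Grm (metabotropic glutamate receptor), Gabra, Gabrb or Gabrg (GABA-A receptor), Gabbr (GABA-B receptor) or Slc6a, and that have a probe set annotated to them and to no other gene. This gave 54 of the 18194 genes named on the array. Taken to the letter, the rule also brought in Grid2ip, a scaffold partner of a delta receptor, and Slc6a19os, a transcript antisense to a transporter gene. Each gene was followed by 1 probe set, the one with the highest mean over the 8 arrays.

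The NSCs were grown as secondary neurospheres, that is, as floating colonies made again from dissociated colonies of mouse brain cells. In the rcCHIL3 groups they were kept for 3 or 7 days in rcCHIL3, a serum-free medium conditioned by HEK293T cells, a human embryonic kidney line, transfected with Chil3 (named ECF-L in the labels). In the MHM + GF groups they were kept for 3 or 7 days in medium hormone mix (MHM), which per the study's methods held the growth factors EGF and FGF-2. No arrays of medium from mock-transfected HEK293T cells were analysed here, so CHIL3, other products of the HEK293T cells and any difference in growth factors cannot be told apart. Each of the 4 groups had 2 arrays from independent experiments, and the labels give neither strain nor mouse age for an array, while the study's methods name both adult C57BL/6J mice and ICR embryos. The comparisons ask how the medium changed the expression of these genes at each day and how expression changed with time in each medium.

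Glutamate acts through ion channels (AMPA, kainate and NMDA receptors) and through G protein-coupled metabotropic receptors, and GABA acts through chloride channels (GABA-A receptors) and a G protein-coupled receptor (GABA-B). Slc6 transporters use the sodium gradient to bring GABA, glycine, taurine, creatine, monoamines or neutral amino acids into cells. In the neurogenic zones of the brain, where neurons have not yet formed synapses, neural stem and progenitor cells, astrocytes and oligodendrocyte progenitors carry several of these receptors and transporters and meet ambient glutamate and GABA.

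Values are array signals in which each array averages 100, and they were compared as log2(signal + 20), a scale that understates changes at low signals. A gene was kept for testing if at least 2 of the 8 arrays reached a signal of 50. At that signal stood 30.1% to 31.5% of the probe sets of each array, and the 2 arrays of a group correlated at 0.992 to 0.994 across probe sets. Of the markers of neural stem and progenitor cells on the array, 8 of 9 were kept, whereas 0 of 6 microglial and 0 of 5 endothelial markers were. Markers of stem and progenitor cells and of other lineages differed between the groups. At 3 days the 9 stem and progenitor markers summed to 6925 and 7208 with rcCHIL3 and to 8484 and 8747 with MHM + GF. At 7 days they summed to 7806 and 7825 with rcCHIL3 and to 8387 and 8428 with MHM + GF. In limma at an adjusted p under 0.05, 3 of the 8 kept were higher and 4 lower in rcCHIL3 at 3 days. Over all kept probe sets 27.7% and 22.5% were. At 7 days 0 were higher and 3 lower, against 21.3% and 22.7%. The summed signal of 13 neuroblast and neuron markers was 2136 and 2201 with rcCHIL3 and 1601 and 1651 with MHM + GF at 3 days, and 1495 and 1573 with rcCHIL3 and 3109 and 3145 with MHM + GF at 7 days. In such bulk samples, fewer cells of a type and less RNA per cell cannot be told apart.

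Of the 54 members, 17 were kept and 37 were too dim, 28 of them with a signal under 20 on all 8 arrays. The kept members were 3 of 4 AMPA receptor genes, 2 of 5 kainate, 1 of 6 NMDA, 3 of 6 metabotropic, 2 of 9 GABA-A, the 1 GABA-B gene and 5 of 20 Slc6 transporters. Neither the delta receptor gene Grid1 nor Grid2ip or Slc6a19os was kept. Of the 17, 6 reached a signal of 50 in 1 group only, namely Grm3, Grm5 and Grin3a in MHM + GF at 3 days, Grm4 in rcCHIL3 at 3 days, and Gabrb1 and Slc6a17 in MHM + GF at 7 days. These 6 passed only through the group where they were high, so their calls are no evidence about how often members change.

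**Figure D1:**
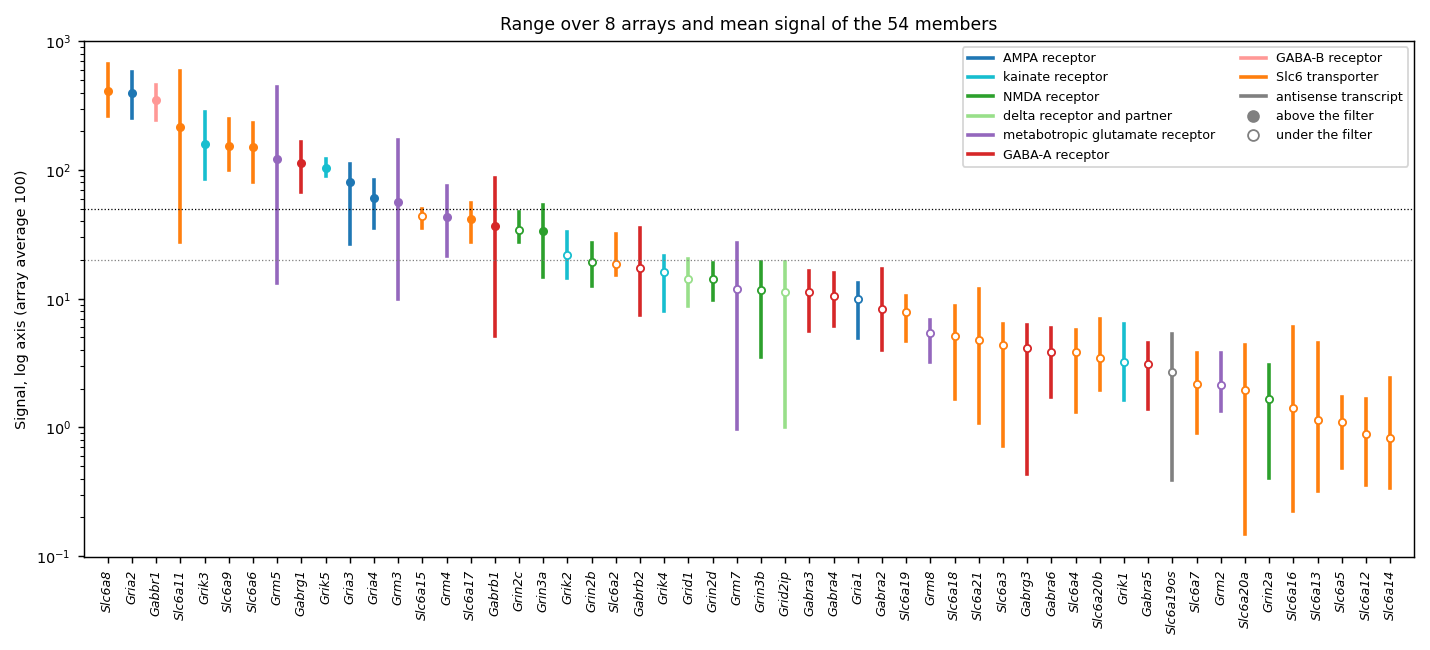
Signal of the 54 members on a log axis, in units in which each array averages 100. Lines span the lowest to the highest of 8 arrays, circles mark the mean (filled for the 17 genes above the filter, open for the 37 under it), colours mark families, and dotted lines mark signals of 50 and 20. Probe sets differ in how strongly they bind, so heights of different genes are not compared.

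At 3 days the largest changes were losses in rcCHIL3 of 2 metabotropic glutamate receptors and of a GABA transporter. Grm5 was lower by 3.64, Slc6a11 by 3.43 and Grm3 by 2.36 on the log2 scale. The largest gains were in Slc6a8, the creatine transporter, and Grik3, a kainate receptor subunit. Among the 17 kept members, 6 were higher in rcCHIL3 (Slc6a8, Grik3, Grm4, Gabrb1, Slc6a6 and Gria2) and 7 were lower (Grm5, Slc6a11, Grm3, Gabrg1, Grin3a, Slc6a9 and Gabbr1) at an adjusted p under 0.05 in limma. Over all kept probe sets, 27.7% were higher and 22.5% lower in the same comparison, so calls were common everywhere. The median change was -0.16 over the kept members and 0.045 over all 8975 kept genes.

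At 7 days the losses of Slc6a11, Grm3 and Grm5 were smaller, and Slc6a6, the taurine transporter, and Gria3, an AMPA receptor subunit, had the largest gains. Of the 17 kept members, 4 were higher in rcCHIL3 (Slc6a6, Gria3, Slc6a8 and Grm4) and 8 were lower (Slc6a11, Gabrg1, Grm3, Gabrb1, Grin3a, Grm5, Grik3 and Gabbr1), against 21.3% higher and 22.7% lower over all kept probe sets. The median change was -0.22 over the kept members and -0.005 over all kept genes. Where the deposited scaling of the arrays was kept, higher calls made up 44.3% of all calls at 3 days, against 55.1% after rescaling, and 65.5% at 7 days, against 48.5%. No member called after rescaling changed direction with it, but 2 calls were lost, those of Gria2 at 3 days and Gabbr1 at 7 days (adjusted p = 0.051 and 0.16).

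**Figure D2:**
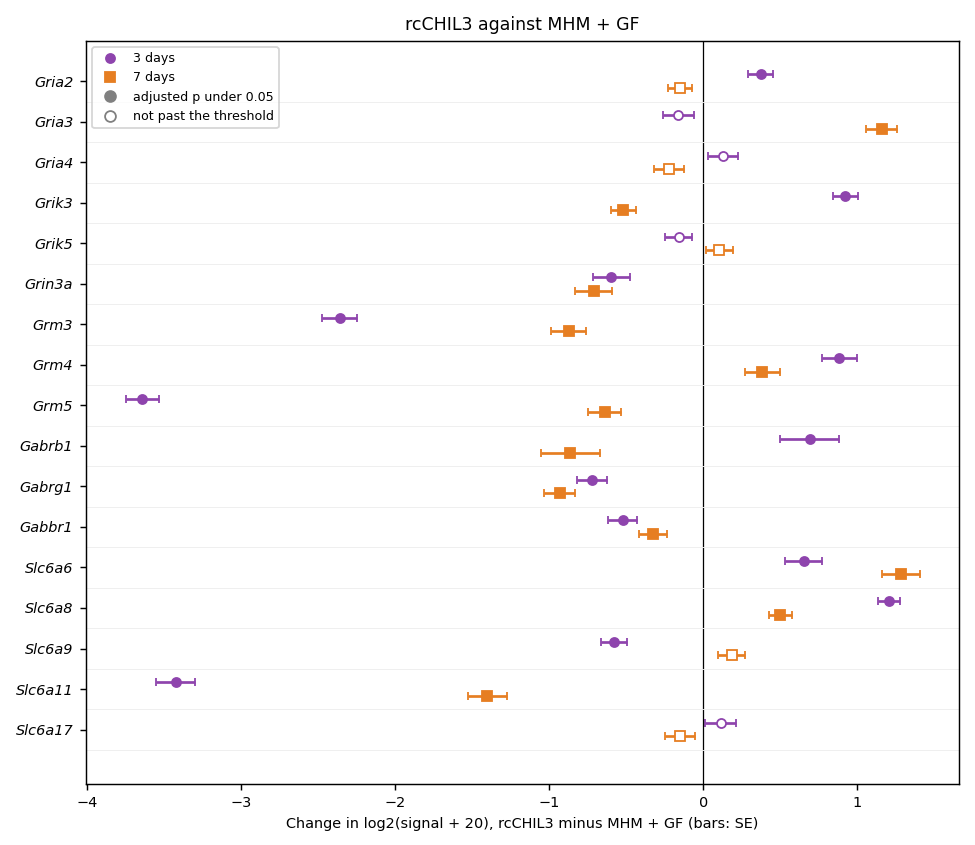
Change of the 17 kept members between media, as rcCHIL3 minus MHM + GF in log2(signal + 20), at 3 days (circles) and 7 days (squares). Bars are standard errors of the limma fit and filled symbols have an adjusted p under 0.05. Grm5, Slc6a11 and Grm3 lie farthest to the left at 3 days, whereas Slc6a6 and Gria3 lie farthest to the right at 7 days.

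Among the metabotropic receptors, Grm5 encodes mGlu5, a Gq-coupled receptor that raises intracellular calcium. Its signals at 3 days were 17.1 and 13.4 in rcCHIL3 and 396 and 445 in MHM + GF. At 7 days they were 15.2 and 13.2 in rcCHIL3 and 36.5 and 30.2 in MHM + GF. The groups did not overlap at either day, and the 2 arrays of MHM + GF at 3 days stood far above the other 6. With the dim side raised to a signal of 20, Grm5 was at least 21-fold lower in rcCHIL3 at 3 days (log2 change -3.64, SE 0.11, adjusted p = 7e-10) and at least 1.67-fold lower at 7 days (-0.64, SE 0.11, adjusted p = 0.00068). A dimmer kept probe set of Grm5 was also lower on both days, by 2.59 and 0.58 on the log2 scale.

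Grm3 encodes mGlu3, a Gi-coupled receptor found on astrocytes as well as on neurons. Its signals were 15.6 and 14.2 in rcCHIL3 and 150 and 170 in MHM + GF at 3 days, and 14.5 and 9.94 in rcCHIL3 and 42.0 and 36.1 in MHM + GF at 7 days. It thus followed the same order of groups as Grm5, with all 4 rcCHIL3 arrays below a signal of 20. The difference was at least 7.98-fold at 3 days (-2.36, SE 0.11, adjusted p = 1.7e-08) and at least 1.95-fold at 7 days (-0.88, SE 0.11, adjusted p = 9.9e-05). Grm4, a Gi-coupled receptor of another subgroup, went the other way. It had 72.6 and 74.8 in rcCHIL3 and 31.8 and 29.8 in MHM + GF at 3 days (0.88, SE 0.11, adjusted p = 6.3e-05), and 42.6 and 37.8 in rcCHIL3 and 21.6 and 31.2 in MHM + GF at 7 days (0.38, SE 0.11, adjusted p = 0.019). The media did not overlap at either day, but its call at 7 days was lost without replicate 1 of MHM + GF at 7 days (0.23, adjusted p = 0.15) or replicate 1 of rcCHIL3 at 7 days (adjusted p = 0.1).

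Slc6a11 encodes a GABA transporter, GAT-3, that is mainly found on astrocytes. Its signals were 27.5 and 33.9 in rcCHIL3 and 467 and 587 in MHM + GF at 3 days. At 7 days they were 69.5 and 83.1 in rcCHIL3 and 213 and 257 in MHM + GF. The 2 media did not overlap at either day, and the distance between them was 17.2-fold at 3 days (-3.43, SE 0.13, adjusted p = 3e-09) and 3.08-fold at 7 days (-1.40, SE 0.13, adjusted p = 8e-06). The astrocyte markers were mixed. Of 9 kept, 5 were higher and 3 lower in rcCHIL3 at 3 days (27.7% and 22.5% over all kept probe sets), and 3 were higher and 2 lower at 7 days (21.3% and 22.7%). At 3 days Gfap, the intermediate filament of astrocytes, was higher (3.69, SE 0.09, adjusted p = 4e-10) and Aldh1l1, a folate enzyme of astrocytes, was lower (-1.25, SE 0.09, adjusted p = 4.9e-07). The summed signal of 10 astrocyte markers was 10850 and 11390 with rcCHIL3 and 8538 and 8571 with MHM + GF at 3 days, and 12870 and 13330 with rcCHIL3 and 13140 and 13220 with MHM + GF at 7 days, where the media overlapped. The part of astrocytes in the Slc6a11 signal was not tested.

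The sequences around the starts of 3 of these genes are shown because Grm3 and Slc6a11 were lower with rcCHIL3 at both days whereas Grik3 was higher at 3 days. They run 5′ to 3′ along the gene's strand from 250 bases before to 50 bases after the start, from RefSeq on GRCm38.p6, and capitals mark CG dinucleotides. RefSeq promoters were matched for 39 of the 54 members.
Grm3, chr5:9725303-9725602, minus strand: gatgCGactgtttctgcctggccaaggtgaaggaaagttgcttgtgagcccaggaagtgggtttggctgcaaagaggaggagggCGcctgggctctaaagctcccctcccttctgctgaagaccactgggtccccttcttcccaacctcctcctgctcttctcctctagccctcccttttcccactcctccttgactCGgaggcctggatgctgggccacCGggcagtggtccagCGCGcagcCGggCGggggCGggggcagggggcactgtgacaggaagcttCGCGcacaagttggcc
Slc6a11, chr6:114130991-114131290, plus strand: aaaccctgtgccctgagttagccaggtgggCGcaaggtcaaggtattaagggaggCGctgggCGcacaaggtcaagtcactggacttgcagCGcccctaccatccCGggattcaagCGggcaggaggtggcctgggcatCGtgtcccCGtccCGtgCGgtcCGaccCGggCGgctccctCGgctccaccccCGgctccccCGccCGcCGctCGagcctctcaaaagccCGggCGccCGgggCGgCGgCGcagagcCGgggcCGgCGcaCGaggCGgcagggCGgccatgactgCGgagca
Grik3, chr4:125490446-125490745, plus strand: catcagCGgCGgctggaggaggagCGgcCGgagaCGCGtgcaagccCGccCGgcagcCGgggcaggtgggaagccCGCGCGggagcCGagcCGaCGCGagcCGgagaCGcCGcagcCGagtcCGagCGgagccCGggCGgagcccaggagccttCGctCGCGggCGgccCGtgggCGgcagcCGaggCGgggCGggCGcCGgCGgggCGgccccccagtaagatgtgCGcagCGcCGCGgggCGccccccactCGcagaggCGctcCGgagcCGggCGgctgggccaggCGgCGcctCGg

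Grm3 held 11 CG dinucleotides, Slc6a11 held 32 and Grik3 held 50, against a median of 7 over the 32851 promoters of the table. The median was 14 over the 15 promoters of kept members and 10 over the 42 promoters of members under the filter. None of the 3 windows held, on either strand, the E-box CAGCTG bound by bHLH factors (16.3% of all promoters had it), the cAMP response element TGACGTCA (1.79%), the AP-1 element TGANTCA (7.81%) or the TATA box TATAAA (13.6%). This describes the letters of these windows and nothing more.

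AMPA receptors are the channels of fast glutamate transmission, and Gria2 encodes the subunit that keeps calcium out of most of them. Its signals were 575 and 558 in rcCHIL3 and 409 and 459 in MHM + GF at 3 days, and 291 and 256 in rcCHIL3 and 314 and 296 in MHM + GF at 7 days. The media stood apart at both days, but in opposite order and by little. Gria2 was 1.3-fold higher in rcCHIL3 at 3 days (0.37, SE 0.08, adjusted p = 0.0026), and 2 other probe sets gave 0.42 and 0.44. At 7 days its change of -0.15 (SE 0.08) had an adjusted p of 0.15, whereas another probe set was lower (-0.47, adjusted p = 0.00037).

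Gria3, another AMPA subunit, had 102 and 89.1 in rcCHIL3 and 112 and 106 in MHM + GF at 3 days, and 94.0 and 86.2 in rcCHIL3 and 26.8 and 32.0 in MHM + GF at 7 days. The 2 arrays of MHM + GF at 7 days were low and the other 6 lay close together. The difference at 7 days was 3.06-fold (1.16, SE 0.10, adjusted p = 5.6e-06), while that at 3 days had an adjusted p of 0.2. Gria4, also an AMPA subunit gene, had 82.4 and 84.3 in rcCHIL3 and 80.7 and 68.8 in MHM + GF at 3 days. At 7 days it had 37.4 and 35.6 in rcCHIL3 and 44.1 and 47.9 in MHM + GF. Both days of Gria4 missed the threshold between media (0.13 and -0.22, each SE 0.10, adjusted p = 0.31 and 0.086).

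Kainate receptors modulate excitability, and Grik3 encodes one of their low-affinity subunits. Grik3 had 269 and 281 in rcCHIL3 and 131 and 140 in MHM + GF at 3 days, and 85.7 and 93.7 in rcCHIL3 and 136 and 139 in MHM + GF at 7 days. Without overlap at either day, rcCHIL3 arrays were the highest of all at 3 days and the lowest of all at 7 days. The change was 0.92 at 3 days (SE 0.08, adjusted p = 2.6e-06) and -0.52 at 7 days (SE 0.08, adjusted p = 0.00039). Grik5, a subunit that needs a partner such as Grik3 to form a channel, had 105 and 106 in rcCHIL3 and 118 and 122 in MHM + GF at 3 days, and 106 and 95.5 in rcCHIL3 and 94.9 and 89.3 in MHM + GF at 7 days. Its changes of -0.16 and 0.10 (each SE 0.09) did not pass the threshold (adjusted p = 0.14 and 0.36).

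Of the NMDA receptor genes only Grin3a, whose glycine-binding subunit lowers calcium entry, was kept. It had 34.5 and 22.6 in rcCHIL3 and 53.2 and 52.8 in MHM + GF at 3 days, and 14.7 and 14.8 in rcCHIL3 and 37.2 and 36.7 in MHM + GF at 7 days. All rcCHIL3 arrays lay below all MHM + GF arrays, at 3 days (-0.60, SE 0.12, adjusted p = 0.0015) and at 7 days (-0.71, SE 0.12, adjusted p = 0.00064). The obligate glycine-binding subunit of NMDA receptors was not analysed here, and Grin2a to Grin2d, its glutamate-binding partners, were all under the filter.

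**Figure D3:**
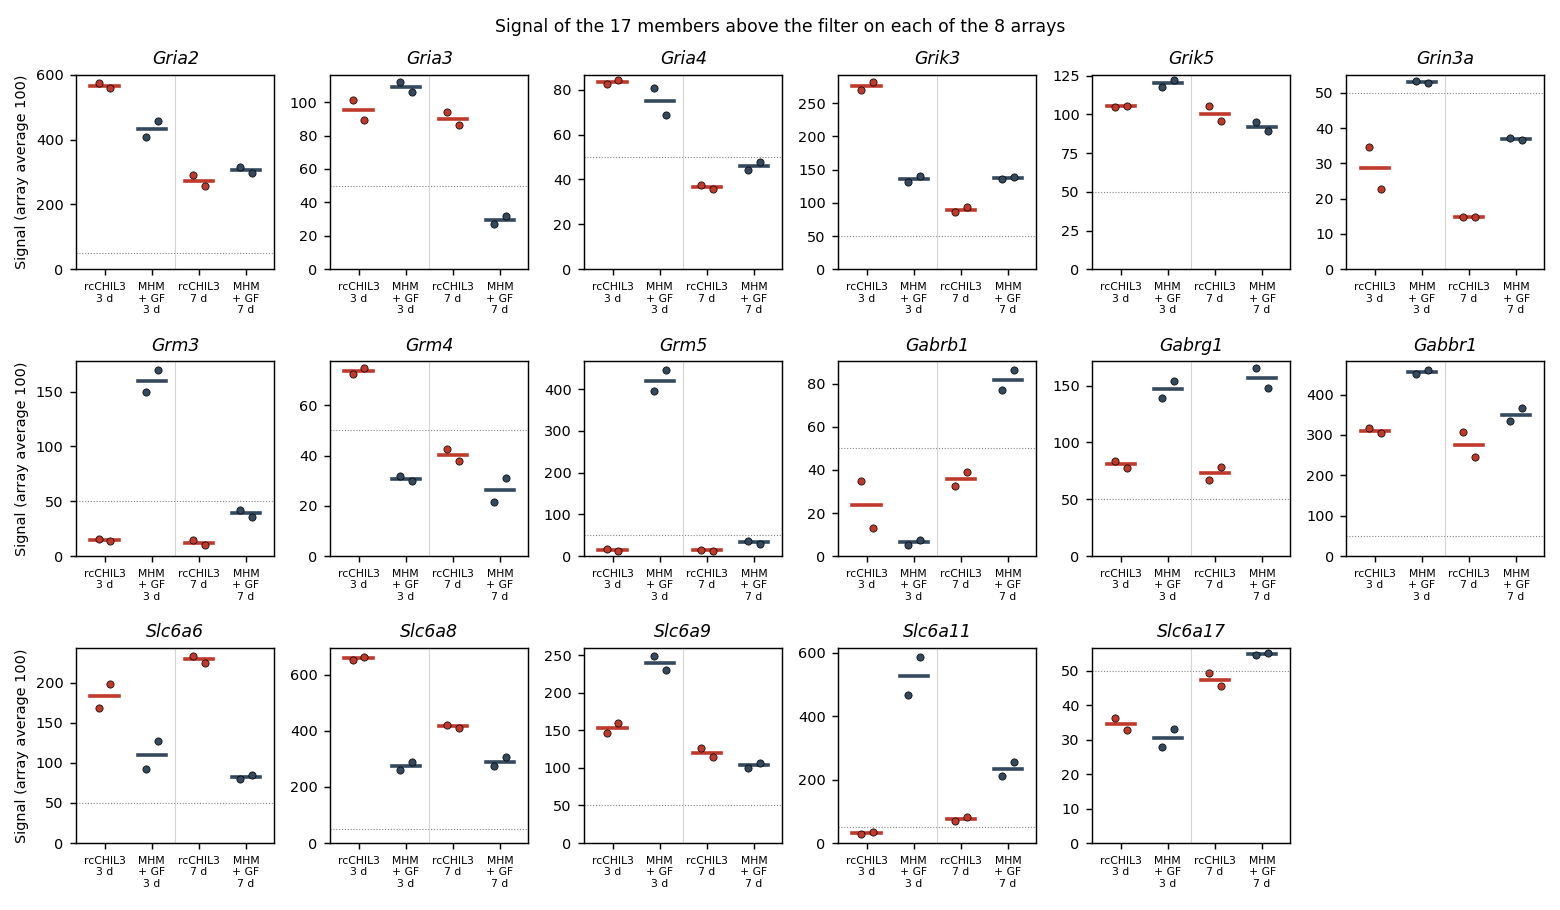
Signal of each of the 17 kept members on the 8 arrays, in units in which each array averages 100, on axes that start at 0. Circles are arrays, bars are the mean of the 2 arrays of a group, and the dotted line marks a signal of 50. MHM + GF at 3 days stands alone for Grm5 and Grm3, and MHM + GF at 7 days stands alone for Gria3 (low) and Gabrb1 (high).

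The GABA-A receptor genes Gabrb1 and Gabrg1 encode a beta and a gamma subunit of the chloride channel. Gabrb1 had 35.0 and 12.9 in rcCHIL3 and 5.15 and 7.68 in MHM + GF at 3 days, and 32.7 and 39.1 in rcCHIL3 and 77.02 and 86.2 in MHM + GF at 7 days. It was the most variable of the kept members between replicate arrays of rcCHIL3 at 3 days relative to its mean. Its gain at 3 days (0.69, SE 0.19, adjusted p = 0.01) was lost without replicate 1 of rcCHIL3 at 3 days (0.32, adjusted p = 0.097), rose to 1.06 without replicate 2, and was also lost without replicate 1 of MHM + GF at 3 days (adjusted p = 0.062). At 7 days Gabrb1 was 2.27-fold lower in rcCHIL3 (-0.86, SE 0.19, adjusted p = 0.0037). Of the 9 kept neuroblast and neuron markers, 7 were higher and 2 (Snap25 and Map2) lower in rcCHIL3 at 3 days. Over all kept probe sets 27.7% were higher and 22.5% lower. At 7 days 1 marker (Elavl3) was higher and 6 were lower, against 21.3% and 22.7%. Dlx1, a transcription factor of GABAergic precursors, had 211 and 197 in rcCHIL3 and 18.1 and 13.5 in MHM + GF at 3 days, and 36.9 and 42.9 in rcCHIL3 and 541 and 546 in MHM + GF at 7 days. Whether these cells carried the Gabrb1 signal was not tested.

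Gabrg1 had 84.0 and 77.6 in rcCHIL3 and 139 and 154 in MHM + GF at 3 days, and 67.0 and 78.5 in rcCHIL3 and 166 and 148 in MHM + GF at 7 days. All 4 rcCHIL3 arrays were below all 4 MHM + GF arrays, by 1.81-fold at 3 days (-0.72, SE 0.10, adjusted p = 9.7e-05) and 2.16-fold at 7 days (-0.93, SE 0.10, adjusted p = 2.7e-05). Gabrg1 and Gabrb1 belong to 1 cluster of GABA-A genes on chromosome 5, where RefSeq (GRCm38.p6) places Gabrg1 next to Gabra2 and Gabra4 next to Gabrb1, with 1 protein-coding gene between the pairs. Gabra2 and Gabra4, alpha subunit genes of that cluster, were under a signal of 20 on all 8 arrays.

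Gabbr1 encodes the GABA-binding subunit of the GABA-B receptor. Its brightest probe set had 316 and 305 in rcCHIL3 and 450 and 462 in MHM + GF at 3 days, and 306 and 246 in rcCHIL3 and 334 and 366 in MHM + GF at 7 days. The media did not overlap, at 3 days (-0.53, SE 0.09, adjusted p = 0.00062) or at 7 days (-0.33, SE 0.09, adjusted p = 0.014). The call at 7 days was lost without replicate 2 of rcCHIL3 at 7 days (-0.18, adjusted p = 0.14) and without replicate 2 of MHM + GF at 7 days (adjusted p = 0.089). Probe sets of Gabbr1 disagreed. A second one had 0.13 at 3 days (adjusted p = 0.17) and -0.54 at 7 days (adjusted p = 0.00021). The dimmest kept one had -0.35 at 3 days (adjusted p = 0.1) and -0.30 at 7 days (adjusted p = 0.16).

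Among the Slc6 transporters other than Slc6a11, Slc6a8, which imports creatine for energy buffering, had 654 and 664 in rcCHIL3 and 262 and 288 in MHM + GF at 3 days, and 422 and 412 in rcCHIL3 and 273 and 306 in MHM + GF at 7 days. It was higher in all 4 rcCHIL3 arrays, by 2.4-fold at 3 days (1.21, SE 0.07, adjusted p = 1.4e-07) and 1.44-fold at 7 days (0.50, SE 0.07, adjusted p = 3e-04). Slc6a6, which imports the osmolyte taurine, had 168 and 198 in rcCHIL3 and 92.8 and 128 in MHM + GF at 3 days, and 234 and 224 in rcCHIL3 and 80.2 and 84.6 in MHM + GF at 7 days. The media again stood apart, by 1.66-fold at 3 days (0.65, SE 0.12, adjusted p = 0.00095) and 2.78-fold at 7 days (1.28, SE 0.12, adjusted p = 1.1e-05). A second probe set was called in the same direction for both genes at both days.

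Slc6a9 encodes the glycine transporter GlyT1. It had 147 and 160 in rcCHIL3 and 250 and 230 in MHM + GF at 3 days, and 127 and 114 in rcCHIL3 and 100.1 and 107 in MHM + GF at 7 days. The order of the media was reversed between the days, without overlap at either. The loss at 3 days was 1.56-fold (-0.58, SE 0.09, adjusted p = 0.00019). At 7 days the change of 0.18 (SE 0.09) missed the threshold with an adjusted p of 0.11, while a dimmer probe set was higher (0.74, adjusted p = 0.00067). Slc6a17, which loads neutral amino acids into vesicles, had 36.4 and 32.8 in rcCHIL3 and 27.8 and 33.3 in MHM + GF at 3 days, where the media overlapped. At 7 days it had 49.4 and 45.5 in rcCHIL3 and 54.7 and 55.2 in MHM + GF, and its changes of 0.11 and -0.15 (each SE 0.10) had adjusted p values of 0.37 and 0.24.

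Expression of several members also changed with time. In rcCHIL3, 2 of the 17 kept members were higher at 7 days than at 3 days (Slc6a11 and Slc6a17) and 7 were lower (Grik3, Gria2, Gria4, Grm4, Slc6a8, Grin3a and Slc6a9), against 18% higher and 17.9% lower over all kept probe sets. In MHM + GF, 2 were higher (Gabrb1 and Slc6a17) and 11 were lower (Grm5, Grm3, Gria3, Slc6a11, Slc6a9, Gria4, Gria2, Gabbr1, Grin3a, Slc6a6 and Grik5), against 31.1% higher and 26% lower over all kept probe sets. These counts include Grm3, Grm4, Grm5 and Grin3a, which passed the filter only through a 3-day group, and Gabrb1 and Slc6a17, which passed only through a 7-day group. Gria4, counted lower in both media, also reached a signal of 50 only on arrays of the 3-day groups. A filter at a mean signal of at least 50, added after seeing the data, still holds Grm3, Grm5 and Gria4. Of its 13 members, 1 was higher and 5 were lower in rcCHIL3, and 0 were higher and 10 lower in MHM + GF. Of all 14071 probe sets at this filter, 2444 were higher and 2528 lower in rcCHIL3, and 4354 and 3557 in MHM + GF. The median change was -0.12 in rcCHIL3 and -0.36 in MHM + GF over the kept members, and 0.012 in rcCHIL3 and 0.067 in MHM + GF over all kept genes. With the deposited scaling kept, higher calls made up 68.1% of all calls in rcCHIL3, against 50.2% after rescaling.

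In rcCHIL3 the largest changes were losses of Grik3 and Gria2 and a gain of Slc6a11 on the log2 scale, followed by a loss of Gria4. Grik3 was 3.07-fold lower at 7 days (-1.43, SE 0.08, adjusted p = 3.2e-07), Gria4 was 2.28-fold lower (-0.87, SE 0.10, adjusted p = 4.9e-05) and Gria2 was 2.07-fold lower (-1.003, SE 0.08, adjusted p = 3.9e-06). Gria2 was lower with all 3 of its kept probe sets. The summed signal of 8 oligodendrocyte progenitor markers was 4686 and 4797 at 7 days and 7289 and 7459 at 3 days in rcCHIL3. It was also lower with time in MHM + GF, with 5558 and 5710 at 7 days and 6996 and 7231 at 3 days. The part of such cells in the changes of Grik3, Gria2 and Gria4 was not tested. Slc6a11 was 2.49-fold higher at 7 days in rcCHIL3 (0.93, SE 0.13, adjusted p = 2e-04), whereas the 2 low metabotropic receptors Grm5 and Grm3 stayed under a signal of 20 on all 4 rcCHIL3 arrays.

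Smaller changes in rcCHIL3 were those of Grm4 (-0.64, SE 0.11, adjusted p = 0.0012) and Slc6a8 (-0.64, SE 0.07, adjusted p = 6.3e-05). Grin3a fell by 0.47 (SE 0.12, adjusted p = 0.0097), which was lost without replicate 1 of rcCHIL3 at 3 days (-0.30, adjusted p = 0.1). Slc6a9 fell by 0.31 (SE 0.09, adjusted p = 0.018), which was lost without replicate 2 of rcCHIL3 at 3 days (adjusted p = 0.13) or at 7 days (adjusted p = 0.12), and its other probe set had 0.14 (adjusted p = 0.41). Slc6a17 rose by 0.31 (SE 0.10, adjusted p = 0.034), and this call was lost without any 1 of the 4 rcCHIL3 arrays (adjusted p between 0.071 and 0.17).

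In MHM + GF the largest change was that of Grm5, followed by Gabrb1 and Grm3. Grm5 was 12.6-fold lower at 7 days (-3.05, SE 0.11, adjusted p = 2.2e-09) and Grm3 was 4.09-fold lower (-1.60, SE 0.11, adjusted p = 3.8e-07). Gabrb1 was at least 4.08-fold higher (1.94, SE 0.19, adjusted p = 5.7e-06), with the 3-day signals under 20. Gria3 was 3.71-fold lower (-1.39, SE 0.10, adjusted p = 5.3e-07), Slc6a9 was 2.32-fold lower (-1.07, SE 0.09, adjusted p = 1.3e-06) and Slc6a11 was 2.24-fold lower (-1.10, SE 0.13, adjusted p = 2.4e-05). Slc6a17 was 1.8-fold higher (0.57, SE 0.10, adjusted p = 0.00054).

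The other called members in MHM + GF changed by 1.63-fold or less. Gria4 fell by 0.52 (SE 0.10, adjusted p = 0.00091), Gria2 by 0.48 (SE 0.08, adjusted p = 0.00039) and Grik5 by 0.32 (SE 0.09, adjusted p = 0.0079) on the log2 scale. The other kept probe sets of Gria2 changed less, by -0.245 (adjusted p = 0.014) and -0.11 (adjusted p = 0.41). Gabbr1 fell by 0.36 with its brightest probe set (SE 0.09, adjusted p = 0.0057) and by 0.43 with its dimmest kept one (SE 0.17, adjusted p = 0.042), but its other probe set was higher by 0.53 (SE 0.08, adjusted p = 0.00013), so the direction of this gene is not settled. Grin3a fell by 0.36 (SE 0.12, adjusted p = 0.024) and lost its call without any 1 of the 4 MHM + GF arrays (adjusted p between 0.065 and 0.078). Slc6a6 fell by 0.34 (SE 0.12, adjusted p = 0.035), a call that was lost without replicate 2 of MHM + GF at 3 days (-0.14, adjusted p = 0.34) or either replicate at 7 days (adjusted p = 0.12 and 0.068), whereas the change was -0.53 without replicate 1 of MHM + GF at 3 days.

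**Figure D4:**
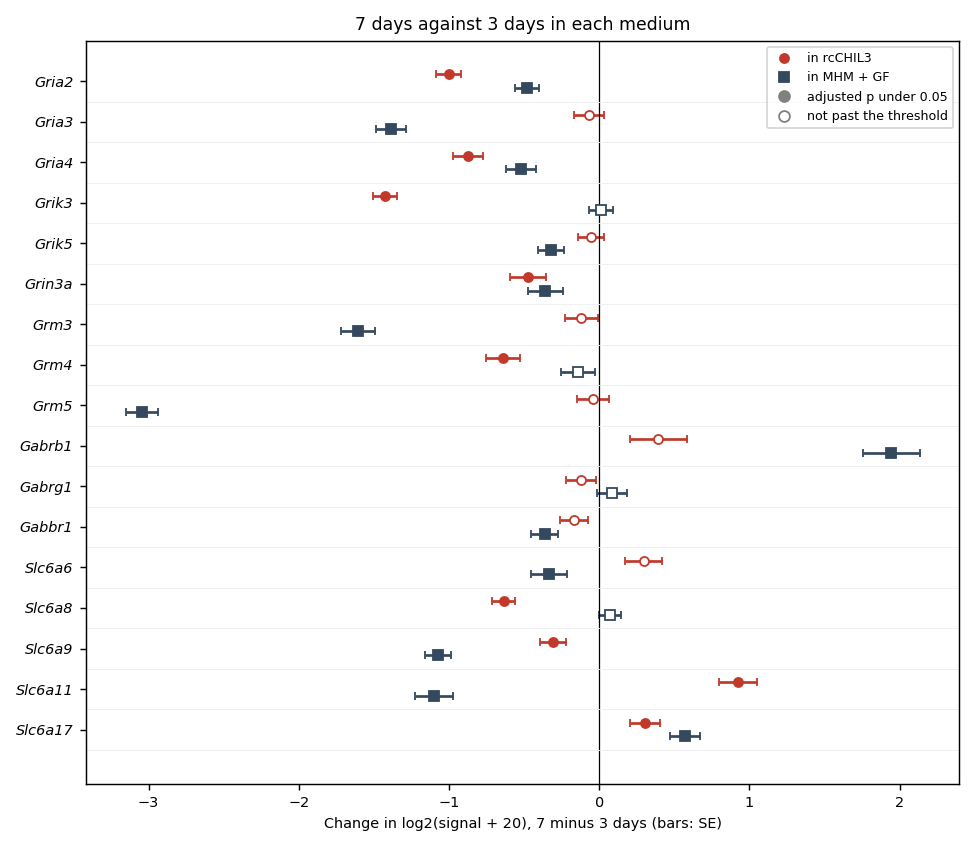
Change of the 17 kept members with time, as 7 minus 3 days in log2(signal + 20), in rcCHIL3 (circles) and in MHM + GF (squares). Bars are standard errors of the limma fit and filled symbols have an adjusted p under 0.05. Slc6a11 lies to the right in rcCHIL3 and to the left in MHM + GF, and Grm5 moved in MHM + GF with -3.05 and not detectably in rcCHIL3.

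Whether the rcCHIL3 effect itself differed between the days was tested as the effect at 7 days minus that at 3 days. It was higher at 7 days for 6 of the 17 kept members (Grm5, Slc6a11, Grm3, Gria3, Slc6a9 and Slc6a6) and lower for 5 (Gabrb1, Grik3, Slc6a8, Gria2 and Grm4), against 18.7% higher and 22.7% lower over all kept probe sets. Grm5, Grm3, Gabrb1 and Grm4 passed the filter only through the group where they were high. The counts are thus no evidence about how often the effect on members differs between days. For Grm5, Slc6a11 and Grm3 the effect was negative at both days and smaller at 7 days, by 3.00 (SE 0.15, adjusted p = 8.1e-08), 2.02 (SE 0.18, adjusted p = 6.8e-06) and 1.49 (SE 0.16, adjusted p = 2.5e-05). In rcCHIL3, Grm5 and Grm3 were under a signal of 20 at both days. In MHM + GF their means fell from 420 to 33.4 and from 160 to 39.1. Grik3 and Gabrb1 were called higher in rcCHIL3 at 3 days and lower at 7 days, with differences of -1.44 (SE 0.11, adjusted p = 2.8e-06) and -1.55 (SE 0.27, adjusted p = 0.00084). The effect on Gria3 differed by 1.32 (SE 0.14, adjusted p = 2.7e-05), and that on Slc6a9 by 0.77 (SE 0.12, adjusted p = 0.00052).

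The gain of Slc6a8 was smaller at 7 days by 0.71 on the log2 scale (-0.71, SE 0.11, adjusted p = 3e-04), although its second probe set had -0.23 (adjusted p = 0.2), and that of Slc6a6 was larger by 0.63 (SE 0.17, adjusted p = 0.012). The call of Slc6a6 was lost without replicate 1 of rcCHIL3 at 3 days (adjusted p = 0.061). For Gria2 the difference was -0.52 (SE 0.11, adjusted p = 0.0036), and it missed the threshold with the deposited scaling (-0.36, adjusted p = 0.12). For Grm4 it was -0.50 (SE 0.16, adjusted p = 0.028), and it was lost when any 1 of 5 arrays was left out (adjusted p between 0.064 and 0.11). With the deposited scaling kept, higher calls were 67.2% of all calls in this test, against 45.3% after rescaling.

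Across the 4 groups, the highest mean of a kept member lay in MHM + GF at 3 days for 8 of the 17, in rcCHIL3 at 3 days for 5, in MHM + GF at 7 days for 3 and in rcCHIL3 at 7 days for 1, Slc6a6. Over all kept genes these groups held the highest mean for 25.8%, 20.2%, 27.9% and 26.1%. The lowest mean of a member was in rcCHIL3 at 7 days for 8 of the 17, a group that held the lowest mean for 22.6% of all kept genes. For Grm3, Grm5, Grin3a, Grm4, Gabrb1 and Slc6a17 the filter fixed the highest group, the only one in which they reached a signal of 50. Grm3, Grm5 and Grin3a, and Gria4, which reached 50 only at 3 days, are also among the 8. These tallies are thus no evidence about where members tend to be high or low. Neighbours in the order of groups overlapped in their arrays for some genes. For Gria3 and Grik5 the rcCHIL3 groups at 7 and 3 days were not separated, and for Gabrg1 neither the 2 rcCHIL3 groups nor the 2 MHM + GF groups were.

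Several members under the filter still passed a fit over all probe sets without a filter. Grm7, a Gi-coupled receptor gene, had 22.7 and 26.9 in rcCHIL3 and 0.979 and 0.968 in MHM + GF at 3 days (1.09, SE 0.10, adjusted p = 6.9e-05), where 10% of all probe sets were called higher. At 7 days it had 12.1 and 11.7 in rcCHIL3 and 10.1 and 9.45 in MHM + GF, and its rcCHIL3 effect was lower at 7 than at 3 days (-0.99, SE 0.13, adjusted p = 0.0016). Gabra2, Grik2 and Grik4 also passed in at least 1 comparison, with smaller changes. For Grm7, since 6 of the 8 arrays were under 20, only the 2 arrays of rcCHIL3 at 3 days were above that level. Its other probe sets were under 20 on all 8 arrays, and the media overlapped in them at 3 days. One had 5.25 and 1.42 in rcCHIL3 and 0.821 and 7.1 in MHM + GF, and the other had 0.235 and 0.299 in rcCHIL3 and 1.64 and 0.179 in MHM + GF.

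Gabrb2, a beta subunit gene of the GABA-A receptor, had 17.95 and 16.95 in rcCHIL3 and 7.49 and 8.03 in MHM + GF at 3 days, and 13.0 and 12.4 in rcCHIL3 and 35.2 and 26.7 in MHM + GF at 7 days. Only the 2 arrays of MHM + GF at 7 days were above a signal of 20, the group in which Gabrb1 was also highest. Gabrb2 was higher at 7 than at 3 days in MHM + GF (0.87, SE 0.12, adjusted p = 7e-04, 13% of all probe sets called higher) and lower in rcCHIL3 than in MHM + GF at 7 days (-0.63, SE 0.12, adjusted p = 0.0067, 7.9% called lower). Its rcCHIL3 effect differed by -1.07 between the days (SE 0.16, adjusted p = 0.003, 7.59% called lower).

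The remaining dim members have ranges only. Slc6a15, a neutral amino acid transporter, reached 35.8 to 49.6 and Grin2c, an NMDA subunit, 27.4 to 46.9, both just under the filter of 50, while Slc6a17 with 2 arrays at 54.7 and 55.2 and Grin3a with 2 at 53.2 and 52.8 were just above it. Grik2 (14.6 to 33.2), Grin2b (12.5 to 27.0), Slc6a2, the noradrenaline transporter (15.4 to 32.0), Grik4 (7.97 to 21.5) and Grid1 (8.86 to 20.3) crossed 20 on at least 1 array. Under 20 on every array were Gria1, Grik1, Grin2a, Grin2d, Grin3b, Grm2, Grm8, Grid2ip, Gabra2, Gabra3, Gabra4, Gabra5, Gabra6, Gabrg3, Slc6a3 (dopamine), Slc6a4 (serotonin), Slc6a5 (neuronal glycine transporter), Slc6a7, Slc6a12, Slc6a13, Slc6a14, Slc6a16, Slc6a18, Slc6a19, Slc6a19os, Slc6a20a, Slc6a20b and Slc6a21. Of the GABA-A receptor, no alpha subunit gene measured here rose above 20, and of the monoamine transporters only that for noradrenaline did, on 1 array.

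Genes that make, move and anchor these transmitters and receptors were followed in lists. Of 7 kept genes of GABA and glutamate synthesis and breakdown, 2 were higher and 1 was lower in rcCHIL3 at 3 days, where 27.7% and 22.5% of all kept probe sets were, and 3 were higher and 2 lower at 7 days, where 21.3% and 22.7% were. Gad1, which makes GABA from glutamate, had 362 and 343 in rcCHIL3 and 176 and 180 in MHM + GF at 3 days (0.91, SE 0.07, adjusted p = 1.1e-06), and 188 and 186 in rcCHIL3 and 542 and 496 in MHM + GF at 7 days (-1.38, SE 0.07, adjusted p = 1.1e-07). Its order of groups at 7 days was that of Gabrb1, and Dlx1 moved with it.

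Of 9 kept genes of glutamate and GABA uptake and vesicle loading outside Slc6, 5 were higher and 2 lower in rcCHIL3 at 3 days (27.7% and 22.5% over all kept probe sets), and 6 were higher and 1 lower at 7 days (21.3% and 22.7%). Slc1a1, a neuronal glutamate transporter also called EAAT3, had 707 and 731 in rcCHIL3 and 230 and 237 in MHM + GF at 3 days (1.54, SE 0.08, adjusted p = 4e-08). Slc1a3, the astrocyte and progenitor transporter GLAST, was lower at both days (-0.38, SE 0.09, adjusted p = 0.0029 at 3 days and -0.34, SE 0.09, adjusted p = 0.0071 at 7 days). The genes that load glutamate or GABA into synaptic vesicles, Slc17a6, Slc17a7 and Slc32a1, were under a signal of 20 on all 8 arrays.

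Of 16 kept receptor scaffolds and auxiliary subunits, 5 were higher and 5 lower in rcCHIL3 at 3 days, not far from the 27.7% and 22.5% of all kept probe sets, and 2 were higher and 5 lower at 7 days, beside 21.3% and 22.7%. Homer2, which tethers mGlu5 to calcium stores, had 51.8 and 48.0 in rcCHIL3 and 122 and 160 in MHM + GF at 3 days (-1.19, SE 0.12, adjusted p = 7.8e-06). At 7 days, when Grm5 was still lower in rcCHIL3, Homer2 had 41.0 and 45.2 in rcCHIL3 and 35.9 and 31.6 in MHM + GF (0.23, SE 0.12, adjusted p = 0.13). Neto1, an auxiliary subunit of kainate receptors, had 32.5 and 27.5 in rcCHIL3 and 74.5 and 66.3 in MHM + GF at 3 days (-0.86, SE 0.12, adjusted p = 0.00013), whereas Grik3 was higher at that day. Cacng4, which escorts AMPA receptors, was higher in rcCHIL3 at both days (0.87 and 0.60, each SE 0.17, adjusted p = 0.0012 and 0.014). Of 31 subunit genes of other transmitter-gated receptors on the array, 3 were kept and 23 were under a signal of 20 on all arrays.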

How the data were processed

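Biotin-labelled RNA of 8 samples was hybridised to 8 Affymetrix mouse arrays. The deposited values are linear signal intensities that the authors made with MAS5 (Affymetrix Expression Console 1.1 per the labels, GCOS in the methods). They hold no detection calls. Deposited array averages were 267.3 to 316.6, so each array was rescaled to an average of 100. The 64 array controls were left out. Of 45101 probe sets, 34958 named 1 gene, 932 several and 9211 none, and 2 naming a member beside another gene were not used. The members have 109 probe sets, 25 of them kept. In R 4.3.3, limma 3.58.1 estimated the mean of each of the 4 groups, with a trended eBayes step and 4 residual degrees of freedom, from log2(signal + 20) of the 15679 probe sets with a signal of at least 50 on 2 or more arrays. Tests were two-sided with Benjamini-Hochberg adjustment over all of these at 0.05. The fit was tested on simulated data. With 2 arrays a group, their number limits the precision. All members are named, those under the filter by range except for the 5 largest changes without a filter. Of each list, at most 2 genes per direction are named. Members and lists were chosen with earlier results of these data known. Symbols followed the platform annotation, and all 54 matched RefSeq. The comparisons at 3 and 7 days share arrays with the time comparisons.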

Additional observations from a re-analysis of the deposited data

Results flagged for a closer look

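For 11 members the rcCHIL3 effect differed between 7 and 3 days in the limma test of the difference (log2 scale, 7 minus 3 days, with effects at both days in the report). Among them Grm5, Grm3, Gabrb1 and Grm4 passed the filter only through the group where they were high. The number of members is thus no evidence about how often the effect differs. The difference was 3.00 for Grm5 (SE 0.15, adjusted p = 8.1e-08), 2.02 for Slc6a11 (adjusted p = 6.8e-06), 1.49 for Grm3 (adjusted p = 2.5e-05), 1.32 for Gria3 (adjusted p = 2.7e-05), 0.77 for Slc6a9 (adjusted p = 0.00052) and 0.63 for Slc6a6 (adjusted p = 0.012). It was -1.55 for Gabrb1 (adjusted p = 0.00084), -1.44 for Grik3 (adjusted p = 2.8e-06), -0.71 for Slc6a8 (adjusted p = 3e-04), -0.52 for Gria2 (adjusted p = 0.0036) and -0.50 for Grm4 (adjusted p = 0.028). Groups of 2 arrays were too small to test for outlying arrays.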

How the results depend on the processing

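Of the 58 member results called, 20 kept their call and direction in each of the 26 alternatives that gave them a value. The other 38 lost it in at least 1, and 13 of these lost it outside the methods' t-test and a 2-fold rule. That rule required all 4 pairs of arrays to go in one direction and the 2 group means to differ at least 2-fold. None of the results changed direction. Counts are of members called higher and lower in rcCHIL3 against MHM + GF or at 7 against 3 days. With the methods' t-test after Benjamini-Hochberg, counts were 3 higher and 4 lower at 3 days, 0 and 1 at 7 days, 0 and 0 with time in rcCHIL3 and 1 and 5 with time in MHM + GF, against 4 and 7, 3 and 8, 2 and 5, and 2 and 10 at the unadjusted threshold. Over all probe sets this t-test called 1297 higher and 1137 lower at 3 days, 21 and 16 at 7 days, 0 and 0 in rcCHIL3 and 1298 and 1078 in MHM + GF. At the unadjusted threshold, in the same order, it called 3580 and 2938, 2516 and 2628, 2504 and 2353, and 3632 and 2951 of 15679. The 2-fold rule left 4 higher and 3 lower at 3 days, 2 higher and 6 lower at 7 days, 1 higher and 3 lower with time in rcCHIL3, and 1 higher and 5 lower with time in MHM + GF. Calls over all probe sets were not counted for this rule, so its member counts have no share to be set against. The rule did not raise dim signals to 20. With that floor, Gabrb1 at 3 days was 1.2-fold higher, and Grm5, Grm3 and Grin3a at 7 days were 1.67-fold, 1.95-fold and 1.85-fold lower. In rcCHIL3, higher counts were 1 without a filter, 1 at a filter of 100, 4 with the deposited scaling, 1 at a mean signal of at least 50 (chosen after seeing the data) and 1 to 3 when 1 array was left out, and lower ones were 4 at a filter of 100. In MHM + GF, higher counts were 5 without a filter, 5 at a filter of 20, 0 at 100, 4 with the deposited signals as they stand and 0 at a mean of at least 50. Over all probe sets without a filter, 2880 of 45037 were higher in rcCHIL3 and 5854 in MHM + GF. At a mean of at least 50, 2444 and 4354 of 14071 were. In rcCHIL3, 2931 of 15697 were higher with the deposited scaling. In MHM + GF, 6169 of 22087 were higher at a filter of 20, and 4345 of 23340 with the deposited signals. Counts over all probe sets at a filter of 100 are not given. For the difference between days, lower counts were 3 at a filter of 100, with the deposited scaling and at a mean of at least 50. Over all probe sets, 1636 of 15697 were lower with the deposited scaling and 3234 of 14071 at that mean. The cause of these shifts in counts was not tested.

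Deviations of same-numbered arrays correlated weakly (r from -0.011 to 0.102). Such values cannot exclude that these arrays share an experiment, and the main fit did not pair them. With a replicate block the counts of members stayed at 6 and 7, 4 and 8, 2 and 7, 2 and 11, and 6 and 5. Over all probe sets 4443 were then higher and 3660 lower at 3 days, against 4341 and 3531 without the block. Rescaling choices moved the median of all kept probe sets by at most 0.15 on the log2 scale.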
